A study of Rattus norvegicus with 22 samples.

Results

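The respiratory chain genes of the rat liver were followed across 22 sequenced livers. Members were the rows of the count table whose symbols name the numbered Nduf subunits of complex I, the Sdh subunits of complex II, the Uqcr subunits of complex III, the Cox4 to Cox8 subunits of complex IV, the Atp5 genes of complex V, or a protein gene of the mitochondrial genome (prefix Mt-), whose normalised counts averaged 10 or more over all libraries. This gave 88 of 14971 rows, 75 nuclear and 13 mitochondrially encoded. The nuclear rows were 35 for complex I, 4 for complex II, 8 for complex III, 11 for complex IV and 17 for complex V. A further 3 matching rows fell below the minimum, with mean normalised counts of 8.2 for Cox4i2, 6.8 for Ndufa3 and 3.9 for Ndufa10l1, and were not tested. The muscle-type genes Cox6a2, Cox7a1 and Cox8b, and Cox6b2, Cox8c and Ndufa4l2, were not analysed here.

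The rats had a hepatic vagotomy, in which the branch of the vagus nerve to the liver is severed, or a sham operation, at 12 weeks of age. After 5 to 6 days they breathed 1 ppm ozone or air for 4 hours a day over 1 or 2 days, and livers were taken within 2 hours. Both ozone groups, 6 sham and 5 vagotomised rats, are set against the 5 sham and 6 vagotomised rats in air. Every rat therefore had an operation a few days before exposure, the controls included. The labels give neither strain nor sex, and do not say which rats had 1 or 2 days of exposure.

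The respiratory chain passes electrons from NADH (complex I) and succinate (complex II) through ubiquinone, complex III and cytochrome c to complex IV, which reduces oxygen, and complex V (ATP synthase) uses the resulting proton gradient to make ATP. Most subunits are encoded in the nucleus and imported, while a small set of core subunits is transcribed within mitochondria from promoters in the control region of their own genome. Hepatocytes hold many mitochondria, and all hepatocyte markers looked for were present (10 of 10, with summed normalised counts of 2431820 to 3359290 per library). In whole liver, fewer cells of a type and less RNA per cell cannot be told apart. Summed markers of the other liver cell types overlapped between the ozone and air groups (Kupffer cell markers 5448 to 8508 in ozone-exposed sham rats against 5863 to 7443 in air-exposed sham rats). Single markers were called, however. In sham rats ozone raised 3 of 10 hepatocyte markers (Ass1 by 1.11, Cyp2e1 by 0.76 and Cps1 by 0.51) and lowered 0, while 1 of 10 Kupffer cell markers, 2 of 9 endothelial markers and 2 of 10 stellate cell markers fell and 1 stellate marker, Dcn, rose. In vagotomised rats 2 hepatocyte markers rose and 1 fell, 1 endothelial marker rose, and 0 stellate or Kupffer cell markers were called. Averaged over surgery, 4 hepatocyte markers rose and 1 fell, 4 of 10 stellate markers fell and 1 rose, 1 Kupffer cell marker fell, and 1 endothelial marker rose and 1 fell. The part of these markers in the results was not tested.

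Libraries held 14098863 to 21141337 reads assigned to genes. Mitochondrially encoded rows took 3.17 to 5.06% of these in ozone-exposed sham rats, 3.36 to 4.56% in ozone-exposed vagotomised rats, 3.46 to 4.33% in air-exposed sham rats and 2.78 to 3.99% in air-exposed vagotomised rats. The 75 nuclear rows took 0.539 to 0.822% of the reads in any library. Of the 22 libraries, 4 stood apart by a low 5.8S ribosomal RNA row (38.1 to 179.5 normalised counts, against 342 to 3775 in the other 18), namely sham ozone replicate 3, vagotomised ozone replicate 1 and vagotomised air replicates 1 and 5. In these 4 the nuclear members were mostly high, with a median log2 difference of 0.36 from the other libraries, and the Mt- rows mostly low, with a median of −0.27. Ndufc1 (−1.93) and Ndufs5 (1.97) had the extreme differences. These differences were taken for the members alone, with no value over all genes beside them, so they are not shown to be particular to the members. Sham ozone replicate 2 was also high, with a median deviation of 0.47 for the nuclear members and 0.54 for the Mt- rows from the mean of all libraries. Counts that rest on these libraries are given with and without them.

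**Figure D1:**
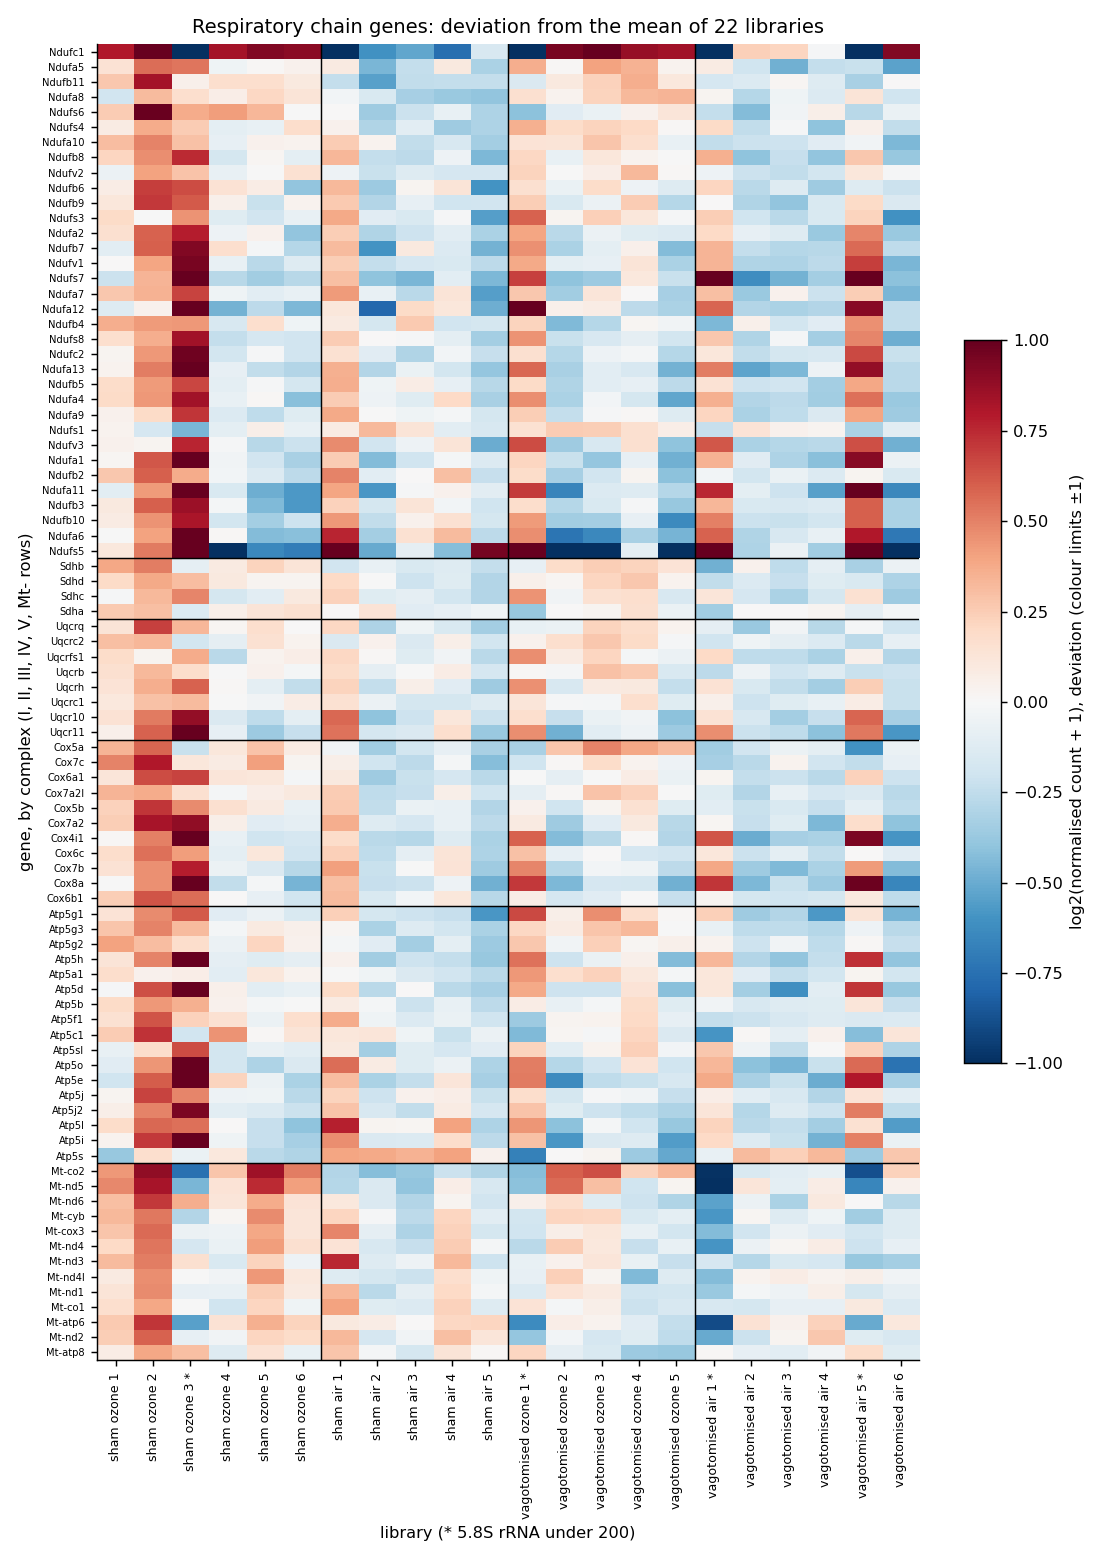
Deviation of the members shown (down, by complex, then by ozone change averaged over surgery) from their own mean over 22 libraries (across), in log2(normalised count + 1), with red higher and blue lower and colours limited at ±1. Sham ozone replicates 2 and 3 are red over most nuclear rows, the 4 libraries marked * (low 5.8S ribosomal RNA) are red for Ndufs5 and Cox4i1 and blue for Ndufc1 and Mt-co2, and Ndufc1 and Mt-co2 are higher in the remaining ozone libraries than in the sham air libraries.

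The promoters of nuclear respiratory genes commonly carry sites for nuclear respiratory factor 1 (NRF1), for ETS factors such as GA-binding protein and for YY1, and the promoter windows of these members were read for those letters. RefSeq windows from 250 bases before to 50 after the annotated start (build GRCr8, a later build than the rn6 used for counting) were matched for 66 of 75 nuclear members, 15 of them by a synonym. The NRF1 motif GCGCANGCG was present, on either strand, in 18 of the 66 (27.3%, against 5.8% of all 33469 rat promoter windows), the ETS motif CCGGAAG in 20 (30.3%, against 8.75%) and the YY1 motif AANATGGCG in 17 (25.8%, against 3.01%). At least 1 of the 3 was found in 44 members (66.7%, against 15.4%). These are matches of letters, not measured binding. No window was given for Atp5h, Atp5sl, Cox6a1, Cox6c, Ndufa8, Ndufb9, Uqcr11 and Uqcrb, among others. The windows below belong to 4 genes that rose after ozone in at least 1 surgery group and to Atp5s, the single member that fell. The 4 were chosen because they hold a motif. Capitals mark the motifs, an NRF1 match in Atp5g3, ETS and YY1 matches in Sdhb, NRF1 and YY1 matches in Ndufs6, and a pair of ETS matches in Uqcrc2, while the Atp5s window held none of these letters. Windows of other members that rose, among them Ndufb11, Cox7c and Cox5a, held none of the motifs either. A relation of motifs to the direction of change was not tested. The strand stands in brackets.
Atp5g3, chr3:79220615-79220914 (-): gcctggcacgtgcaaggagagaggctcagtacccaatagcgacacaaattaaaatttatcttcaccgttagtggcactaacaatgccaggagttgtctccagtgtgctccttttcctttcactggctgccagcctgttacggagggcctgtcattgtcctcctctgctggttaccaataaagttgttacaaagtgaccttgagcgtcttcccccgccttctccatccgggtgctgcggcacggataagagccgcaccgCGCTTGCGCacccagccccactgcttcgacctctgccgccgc
Sdhb, chr5:158547684-158547983 (+): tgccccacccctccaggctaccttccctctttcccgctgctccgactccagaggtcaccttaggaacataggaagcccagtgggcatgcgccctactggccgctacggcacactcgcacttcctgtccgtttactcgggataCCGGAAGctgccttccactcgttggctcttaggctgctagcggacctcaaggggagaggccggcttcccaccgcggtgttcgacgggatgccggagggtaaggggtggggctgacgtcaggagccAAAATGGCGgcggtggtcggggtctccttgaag
Ndufs6, chr1:31797150-31797449 (+): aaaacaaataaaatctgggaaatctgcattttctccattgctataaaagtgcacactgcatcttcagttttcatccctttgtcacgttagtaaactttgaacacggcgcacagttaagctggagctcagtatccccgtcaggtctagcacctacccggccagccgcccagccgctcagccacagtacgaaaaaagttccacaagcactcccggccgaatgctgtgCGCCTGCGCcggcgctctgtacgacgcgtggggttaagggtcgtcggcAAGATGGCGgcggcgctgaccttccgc
Uqcrc2, chr1:184598990-184599289 (+): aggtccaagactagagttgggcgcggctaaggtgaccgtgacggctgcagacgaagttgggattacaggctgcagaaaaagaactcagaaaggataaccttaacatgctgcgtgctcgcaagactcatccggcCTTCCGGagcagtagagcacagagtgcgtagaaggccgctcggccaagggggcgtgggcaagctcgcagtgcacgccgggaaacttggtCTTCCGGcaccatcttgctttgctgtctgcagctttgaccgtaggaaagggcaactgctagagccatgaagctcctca
Atp5s, chr6:93941448-93941747 (+): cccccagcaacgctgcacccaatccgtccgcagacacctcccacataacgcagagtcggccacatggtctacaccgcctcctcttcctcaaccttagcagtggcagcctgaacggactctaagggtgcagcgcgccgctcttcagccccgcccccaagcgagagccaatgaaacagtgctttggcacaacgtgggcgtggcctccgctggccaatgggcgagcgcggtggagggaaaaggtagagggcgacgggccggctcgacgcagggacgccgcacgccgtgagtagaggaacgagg

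In sham rats most respiratory chain genes were slightly higher after ozone than in air. With all libraries, the median change in vagotomised rats was nearer 0, and the share of members that rose was close to that of all genes. The size of the median varied with single libraries and with the scaling in both surgery groups. Without the libraries low in 5.8S ribosomal RNA, the nuclear medians were 0.16 in sham rats and 0.18 in vagotomised rats. Of the 75 nuclear members, 61 and 64 then lay above 0, so the order of the surgery groups depended on these libraries. Changes are log2 fold changes of normalised count + 1 with their standard error (SE), and a member rose or fell where limma gave a Benjamini-Hochberg adjusted p under 0.05 over the 12424 genes tested. In sham rats 84 of 88 members lay above 0 with a median change of 0.23, against a median of 0.008 over all genes tested, of which 50.8% lay above 0. There 18 members rose and 1 fell. The 19 are 21.6% of the members, below the 28.4% of all genes tested that were called. By direction, 20.5% of the members rose, against 14.6% of all genes, and 1.14% fell, against 13.8%. After vagotomy 61 members lay above 0 with a median change of 0.08. Of all genes tested, 49.0% lay above 0 there, with a median of −0.008. There 11 rose (12.5% of the members, against 11.4% of all genes that rose) and 0 fell (against 9.63%), and the share called in either direction was 12.5% against 21.1% of all genes. At unadjusted p under 0.05 (limma) the members numbered 27 of 88 in sham rats and 21 of 88 in vagotomised rats. Of the 12424 genes tested, 4845 and 4021 were under that mark, larger shares than among the members.

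Both ozone comparisons called Atp5g3, Cox5a, Ndufa5, Ndufa8, Sdhb and Sdhd, of the 19 members called in sham rats and the 11 called in vagotomised rats. The share of all genes called in both was not counted, so this overlap cannot be read as large or small. Averaged over surgery, ozone raised 27 members and lowered 1, or 31.8% of the members, against 39.1% of all genes. Of all genes 20.2% rose and 18.9% fell in that comparison, against 30.7% and 1.14% of the members. The changes were small, and the nuclear median was 0.25 in sham rats and 0.08 in vagotomised rats, with 0.18 and 0.10 for the Mt- rows.

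Without the 4 low-5.8S libraries, 19 members were called in sham rats, 14 of them shared with the full set, and 13 in vagotomised rats, 8 of them shared. The nuclear median then was 0.16 in sham rats and 0.18 in vagotomised rats. Leaving out sham ozone replicate 3 alone gave the same 0.16 in sham rats, with 61 of 75 nuclear members above 0 in place of 71. In vagotomised rats, where 52 of 75 nuclear members lay above 0, the nuclear median was 0.02 with 39 above 0 without vagotomised ozone replicate 1. It was 0.04 without vagotomised air replicate 2 or 6 (48 and 43 above 0), 0.12 without vagotomised ozone replicate 5 (59) and 0.14 without vagotomised air replicate 5 (67). The count in sham rats was 10 without sham ozone replicate 2, without sham air replicate 2, without sham air replicate 4 or without sham air replicate 5, and 11 without sham air replicate 3. In vagotomised rats it was 7 without vagotomised ozone replicate 2, 4 without vagotomised ozone replicate 3 or 4, and 6 without vagotomised air replicate 3, 4 or 6. Scaling every library to the same total put the median change of all genes in sham rats at −0.09, in place of 0.008, and the nuclear median there was then 0.14. In vagotomised rats, scaling to equal upper quartiles put the median of all genes at −0.07, in place of −0.008, and the nuclear median at 0.02 with 40 of 75 above 0. Quantile normalisation gave 0.04 with 44 above 0 there, and the replicate block 0.03 with 41.

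**Figure D2:**
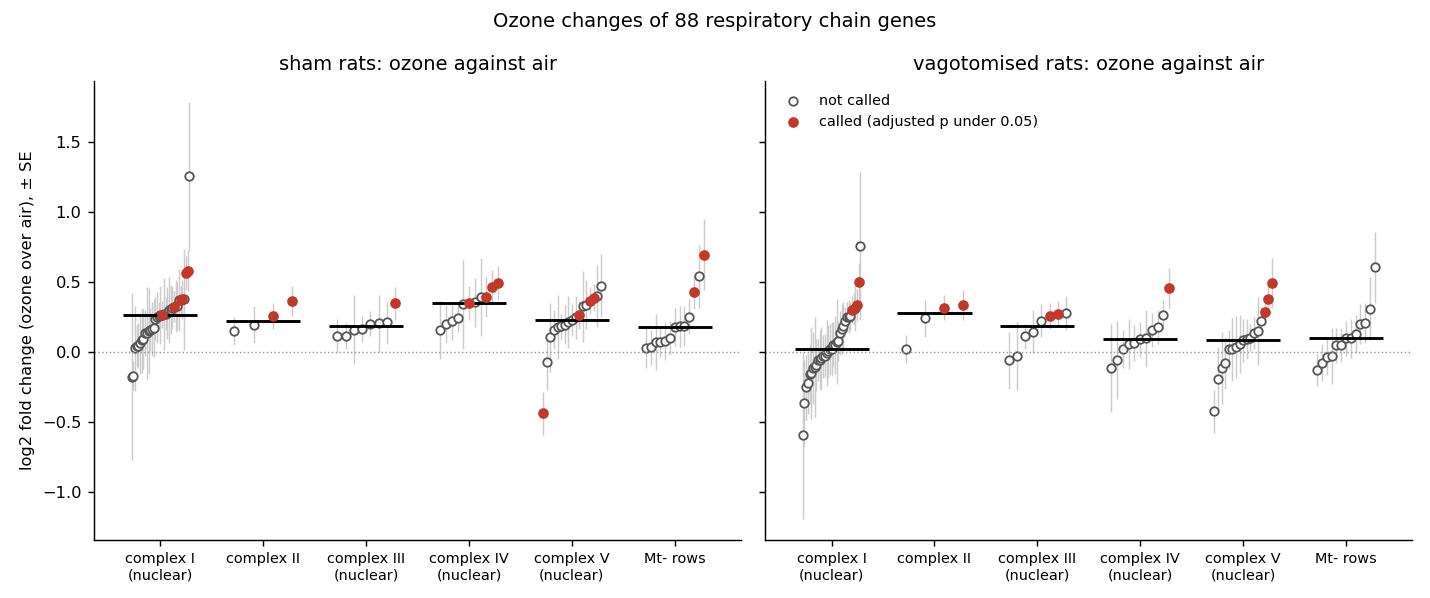
Log2 fold change of ozone over air (vertical, ± SE) for each member, grouped by complex (horizontal), in sham rats (left) and vagotomised rats (right). Filled points are called, and the bars are medians. All libraries are included. Most points lie above 0 in sham rats, complex I is centred near 0 in vagotomised rats, and Atp5s is the filled point below 0.

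Complex I, the NADH dehydrogenase, had 6 of its 35 nuclear members raised by ozone in sham rats and 3 in vagotomised rats, with medians of 0.26 and 0.02, and none fell. Without the low-5.8S libraries those medians were 0.12 in sham rats and 0.15 in vagotomised rats, so their order depended on these libraries. Ndufb11, an accessory subunit of the membrane arm, had normalised counts of 2018, 2194 and 3471 (lowest, median, highest) in ozone-exposed sham rats, against 1652, 1341, 1645, 1653 and 1659 in air-exposed sham rats. The groups did not overlap, although sham ozone replicate 2 at 3471 and sham air replicate 2 at 1341 each stood apart in their group. It rose by 0.57 ± 0.12 in sham rats (adjusted p = 0.00103). In vagotomised rats its values were 1765, 2093, 2287, 2517 and 2105 in ozone-exposed vagotomised rats, against 1563, 1783 and 1978 (lowest, median, highest) in air-exposed vagotomised rats, and the change of 0.25 ± 0.12 was not called (adjusted p = 0.143). Ndufs6, a zinc-binding accessory subunit whose gene span overlaps that of Mrpl36, rose in sham rats by 0.58 ± 0.14 (adjusted p = 0.00379). Its mean was 163 ± 40.9 in ozone-exposed sham rats, against 106 ± 11.5 in air-exposed sham rats (SD, n = 6 and 5). After vagotomy its change was 0.08 ± 0.14 (adjusted p = 0.745), and the difference between both ozone changes was −0.50 ± 0.20 (adjusted p = 0.468). Ndufa8, an accessory subunit facing the intermembrane space, rose by 0.37 ± 0.10 in sham and 0.30 ± 0.10 in vagotomised rats.

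Ndufa5, an accessory subunit of the matrix arm, had the complex's smallest p after vagotomy, with normalised counts of 517, 404, 531, 511 and 412 in ozone-exposed vagotomised rats, against 276, 342 and 425 (lowest, median, highest) in air-exposed vagotomised rats. A single air library, vagotomised air replicate 1 at 425, reached into the ozone values. The change was 0.50 ± 0.14 in vagotomised rats (adjusted p = 0.0131) and 0.38 ± 0.14 in sham rats (adjusted p = 0.0478). Ndufa10 rose in vagotomised rats by 0.34, and Ndufs4 and the core iron-sulfur subunit Ndufv2 rose in sham rats by 0.32 and 0.27. The 7 nuclear core subunits, which carry the redox centres, held this 1 rise in sham rats and 0 calls in vagotomised rats, with medians of 0.26 and 0.22. Ndufs1, the largest core subunit, changed by −0.17 ± 0.10 in sham rats and 0.25 ± 0.10 in vagotomised rats, neither called. Its difference between both changes, 0.42 ± 0.15, was the largest positive one among the members and was not called either (adjusted p = 0.393). Without the low-5.8S libraries it was 0.26 ± 0.13, and Atp5o of complex V had the largest, 0.41 ± 0.23, neither called.

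Ndufc1, a small membrane subunit, had the largest change of the complex in both surgery groups. Normalised counts were 738, 4668 and 7115 (lowest, median, highest) in ozone-exposed sham rats, against 840.4, 1679, 1785, 1519 and 2287 in air-exposed sham rats. In vagotomised rats they were 987, 4941, 5156, 4675 and 4595 in ozone-exposed vagotomised rats, against 760.1, 2757 and 4867 (lowest, median, highest) in air-exposed vagotomised rats. The lowest value of each ozone group and the lowest pair of the vagotomised air group belonged to the 4 low-5.8S libraries. Its change was 1.25 ± 0.53 in sham rats (adjusted p = 0.0811) and 1.01 ± 0.38 averaged over surgery (adjusted p = 0.0371), and without those 4 libraries it was 1.72 ± 0.20 in sham rats (adjusted p = 3.2e-06). In vagotomised rats the change was not called, with 0.76 ± 0.53 over all libraries (adjusted p = 0.352) and 0.57 ± 0.23 without the 4 (adjusted p = 0.0776). Ndufc2, whose protein sits beside it, changed by 0.28 ± 0.18 in sham rats. The summed count of 61 small nucleolar RNA rows also differed between these sets of libraries. It was 98.0 to 155.4 in the low-5.8S libraries, 2669 to 8078 in the other ozone libraries and 924 to 3422 in the other air libraries. Within the sham air group it did not follow Ndufc1, with the highest sum (1744) in replicate 4, where Ndufc1 was 1519, and the lowest (924) in replicate 3, where it was 1785. No correlation was computed, and the part of the sum in the result was not tested. Ndufs5, a small intermembrane-space subunit, had the lowest change of the complex, −0.18 ± 0.60 in sham and −0.60 ± 0.60 in vagotomised rats, on counts of 4.38 to 66.5. Ndufa4, named for complex I but a subunit of complex IV in mammals, changed by 0.17 ± 0.21 in sham rats and −0.05 ± 0.21 in vagotomised rats, not called.

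Complex II, succinate dehydrogenase, is wholly nuclear and links the citric acid cycle to the chain. Of its 4 genes, Sdhb and Sdhd rose in both surgery groups, and the median change was 0.22 in sham rats and 0.28 in vagotomised rats. Without the low-5.8S libraries the medians were 0.22 and 0.29. Sdhb, the iron-sulfur subunit, had normalised counts of 1597, 1917 and 2414 (lowest, median, highest) in ozone-exposed sham rats, against 1482, 1611, 1530.3, 1555 and 1436 in air-exposed sham rats. Only sham ozone replicate 3, a low-5.8S library at 1597, lay below an air value. The rise was 0.36 ± 0.10 (adjusted p = 0.0113) and in vagotomised rats 0.34 ± 0.10 (adjusted p = 0.0246). Sdhd, a membrane anchor, had normalised counts of 2095, 2053, 2345, 2442 and 2072 in ozone-exposed vagotomised rats, against 1634, 1774 and 1863 (lowest, median, highest) in air-exposed vagotomised rats. Every ozone value was above every air value there, and the rise was 0.32 ± 0.09 (adjusted p = 0.0151), against 0.26 ± 0.09 in sham rats (adjusted p = 0.0384). Sdhc, the other anchor, changed by 0.19 and 0.24, and Sdha, the flavoprotein, by 0.15 and 0.02, none of them called. Sdha was called in sham rats without the low-5.8S libraries (0.20 ± 0.07, limma adjusted p = 0.0268).

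Complex III, the cytochrome bc1 complex, had 1 of 8 nuclear members raised in sham rats, Uqcrq, and 2 in vagotomised rats, Uqcrc2 and Uqcrb, with medians of 0.18 in each. Without the low-5.8S libraries the medians were 0.11 in sham rats and 0.21 in vagotomised rats. Uqcrq, a small subunit whose gene span overlaps Gdf9, had normalised counts of 2338, 2589 and 3747 (lowest, median, highest) in ozone-exposed sham rats, against 2699, 1889, 2269, 2106 and 1847 in air-exposed sham rats. The air library at 2699, sham air replicate 1, was above 4 of the ozone values, and the remaining air values lay below all of them. The rise was 0.35 ± 0.12 (adjusted p = 0.0301), and in vagotomised rats the change was 0.22 ± 0.12 (adjusted p = 0.198). Uqcrc2, a core protein, had 2243, 2438, 2614, 2479.6 and 2149 in ozone-exposed vagotomised rats, against 1798, 2009 and 2103 (lowest, median, highest) in air-exposed vagotomised rats. Those groups did not overlap, and it rose by 0.27 ± 0.09 (adjusted p = 0.041), while in sham rats it changed by 0.17 ± 0.09 (adjusted p = 0.188). Without the low-5.8S libraries Uqcrc2 was called in sham rats, with 0.22 ± 0.08 (limma adjusted p = 0.0458). In vagotomised rats it then was not, with 0.24 ± 0.09 (adjusted p = 0.073). Uqcrb rose by 0.26 ± 0.09 after vagotomy (adjusted p = 0.0488), and was not called there without those libraries (0.25 ± 0.11, limma adjusted p = 0.111). Uqcrfs1, the Rieske iron-sulfur protein, had the smallest change in sham rats (0.11) and the largest in vagotomised rats (0.28), with a difference of 0.17 ± 0.17 that was not called. Uqcrfs1 was called in vagotomised rats without the low-5.8S libraries (0.33 ± 0.10, limma adjusted p = 0.0216). Uqcr10 had the smallest change after vagotomy (−0.06).

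Complex IV, cytochrome c oxidase, had the highest median of the nuclear groups in sham rats, 0.35, with 4 of 11 members raised (Cox7c, Cox6a1, Cox5b and Cox5a). In vagotomised rats the median was 0.09 and Cox5a alone rose. Without the low-5.8S libraries the medians were nearer each other, 0.24 in sham rats and 0.18 in vagotomised rats. Cox7c, a small membrane subunit whose span overlaps a small nuclear RNA, had normalised counts of 2995, 3545 and 5129 (lowest, median, highest) in ozone-exposed sham rats, against 3060.1, 2553, 2455, 2902 and 2186 in air-exposed sham rats. A single air library, replicate 1 at 3060, lay above the lowest ozone value. It rose by 0.49 ± 0.12 (adjusted p = 0.00438), and after vagotomy it changed by 0.18 ± 0.12 (adjusted p = 0.346). Cox5a, a peripheral subunit on the matrix side, had 2045, 3115, 3613, 3349 and 3189 in ozone-exposed vagotomised rats, against 1681, 2324 and 2466 (lowest, median, highest) in air-exposed vagotomised rats. The ozone value of 2045 came from the low-5.8S library, and the other ozone values were above every air value. Its rise was 0.46 ± 0.14 (adjusted p = 0.0245), against 0.39 ± 0.14 in sham rats (adjusted p = 0.0418). Without the low-5.8S libraries it was 0.47 ± 0.10 in vagotomised rats (limma adjusted p = 0.00218) and 0.48 ± 0.09 in sham rats (adjusted p = 0.000396).

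Among genes of isoform families, Cox6a1, the non-muscle form, rose by 0.46 ± 0.12 in sham rats (adjusted p = 0.00757) and changed by 0.09 ± 0.12 in vagotomised rats. Cox4i1, the general form of subunit IV, changed by 0.39 ± 0.28 in sham rats, on values of 2292, 2575 and 6522 (lowest, median, highest) in ozone-exposed sham rats, against 2991, 2181, 2164, 2413 and 2114 in air-exposed sham rats. Its highest values were in low-5.8S libraries, 6522 in sham ozone replicate 3 and 5069 in vagotomised air replicate 5, and without those libraries the change was 0.18 ± 0.13. Cox7a2l, a supercomplex assembly factor related to Cox7a2, rose averaged over surgery by 0.26 ± 0.07 (adjusted p = 0.00683), while Cox7a2 itself changed by 0.21 ± 0.12 (adjusted p = 0.202). The remaining members, Cox6b1, Cox6c, Cox7b and Cox8a, changed by 0.16 to 0.34 in sham rats and −0.11 to 0.10 in vagotomised rats, none called. Cox7b had the smallest change of the complex in sham rats and Cox8a the smallest in vagotomised rats.

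Complex V, the ATP synthase, had 3 of 17 members raised and 1 lowered in sham rats, and 3 raised in vagotomised rats, with medians of 0.23 and 0.08. Without the low-5.8S libraries the medians were 0.18 and 0.17. The 3 genes of subunit c, which forms the rotating ring of the membrane part and has the same mature protein from each gene, were each called in at least 1 surgery group. Atp5g3 had normalised counts of 2762, 3184 and 3949.6 (lowest, median, highest) in ozone-exposed sham rats, against 2832, 2249, 2563, 2468 and 2247 in air-exposed sham rats. In vagotomised rats it had 3228, 2959, 3388, 3508 and 2793 in ozone-exposed vagotomised rats, against 2299, 2341 and 2702 (lowest, median, highest) in air-exposed vagotomised rats. The vagotomised groups did not overlap, and in sham rats a single air value, replicate 1 at 2832, exceeded the lowest ozone value. It rose by 0.39 ± 0.10 in sham rats (adjusted p = 0.00415) and by 0.38 ± 0.10 in vagotomised rats (adjusted p = 0.00692), with a difference of −0.01 ± 0.14. Atp5g2 rose in sham rats by 0.37 ± 0.10 (adjusted p = 0.00626) and changed by 0.22 ± 0.10 after vagotomy. Atp5g1 rose in vagotomised rats by 0.49 ± 0.18 (adjusted p = 0.0475) and changed by 0.34 ± 0.18 in sham rats. Averaged over surgery the 3 rose by 0.42 (Atp5g1), 0.29 (Atp5g2) and 0.38 (Atp5g3), each called under all 38 alternative settings of that comparison.

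Of the catalytic core, Atp5b, the beta subunit, rose by 0.27 ± 0.10 in sham rats (adjusted p = 0.0461), and its span holds the small nucleolar RNA gene Snord59a. Atp5a1, the alpha subunit, rose by 0.28 ± 0.09 in vagotomised rats (adjusted p = 0.0255). Atp5h, a stalk subunit, had the largest change in sham rats, 0.47 ± 0.23, and was not called (adjusted p = 0.123). Atp5s, a gene named for the ATP synthase that is now called Dmac2l and is not one of its core subunits, had normalised counts of 64.7, 75.1 and 95 (lowest, median, highest) in ozone-exposed sham rats, against 112, 110.0, 108, 112 and 87.2 in air-exposed sham rats. The air value of 87.2, from replicate 5, lay within the ozone values, and the others lay above them. It fell by 0.44 ± 0.16 in sham rats (adjusted p = 0.0371). In vagotomised rats the values were 52.4, 84.5, 85.9, 65.4 and 58.8 in ozone-exposed vagotomised rats, against 65.3, 101 and 106 (lowest, median, highest) in air-exposed vagotomised rats, and the change was −0.42 ± 0.16 (adjusted p = 0.0551). Without the low-5.8S libraries Atp5s was called in both, with −0.45 ± 0.14 in sham rats (limma adjusted p = 0.0137) and −0.50 ± 0.15 in vagotomised rats (adjusted p = 0.0215). Its relative Atp5sl changed by 0.20 and 0.09 over all libraries, not called.

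**Figure D3:**
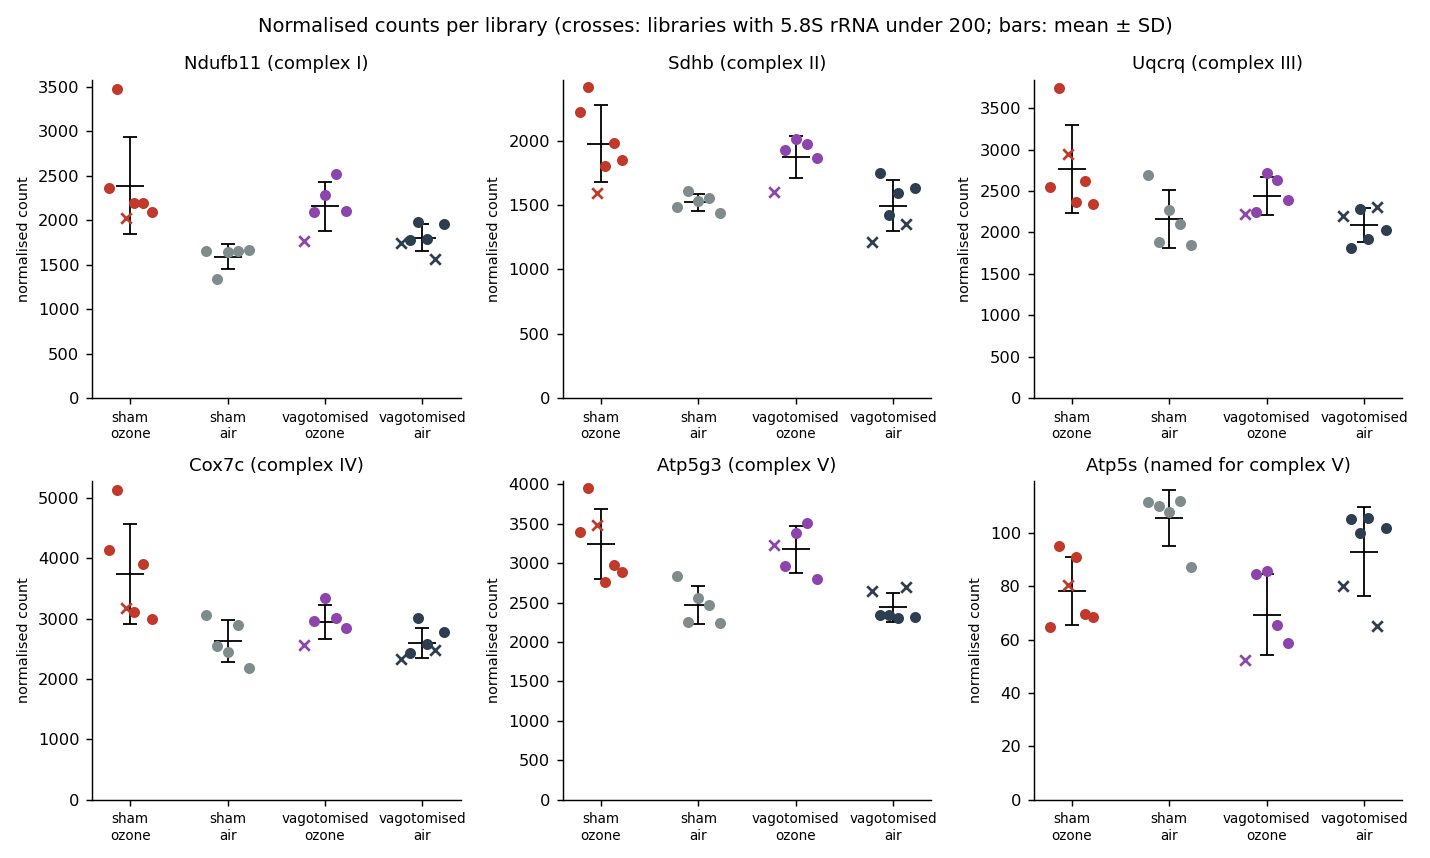
Normalised counts (vertical, from 0) of 6 members in every library, by group (horizontal), with mean ± SD as bars and crosses for the 4 libraries low in 5.8S ribosomal RNA. Ndufb11 lies higher in all ozone-exposed sham rats (2018 to 3471) than in air-exposed sham rats (1341 to 1659), Atp5g3 lies higher in all ozone-exposed than in all air-exposed vagotomised rats, and Atp5s lies mostly lower in ozone.

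Single calls differed in how far they rested on 1 library. In sham rats, Atp5g2, Atp5g3, Cox6a1, Cox7c, Mt-nd6, Ndufb11, Ndufs6 and Sdhb were called under all 39 alternative settings, each library left out included, and in vagotomised rats Atp5g3, Ndufa5 and Sdhd were. Ndufa8 in sham rats kept its call whichever library was left out. The other 10 calls in sham rats each ended without sham air replicate 2, sham air replicate 4 or both, and 9 of the 10 without sham ozone replicate 2. Uqcrq was not called without sham ozone replicates 2 or 3 or sham air replicates 2, 4 or 5, each left out alone, with adjusted p up to 0.0912. The same held for Cox5a with sham ozone replicates 1, 2 or 5 or sham air replicates 2 to 5 (up to 0.106), and for Atp5s with sham ozone replicates 1, 5 or 6 or sham air replicates 1 to 4 (up to 0.0818). Mt-co2 lost its call without any one of the sham libraries except ozone replicate 3, and without vagotomised ozone replicate 4 (up to 0.101). In vagotomised rats the other 8 calls each ended without vagotomised ozone replicate 3, with adjusted p of 0.0856 for Cox5a, 0.0709 for Sdhb and 0.12 for Uqcrc2. Cox5a also lost it without vagotomised ozone replicates 2, 4 or 5 or vagotomised air replicate 5, Sdhb without vagotomised ozone replicates 2 or 4 or vagotomised air replicates 1 or 5, and Uqcrc2 without vagotomised ozone replicates 2 or 4 or vagotomised air replicates 1, 3, 4 or 5. Averaged over surgery, Ndufc1 lost its call without any one of sham ozone replicates 1, 2, 4, 5 or 6, vagotomised ozone replicates 2 to 5, sham air replicates 1 or 4 or vagotomised air replicates 1 or 5 (adjusted p up to 0.0708), and Mt-nd5 without any one of sham ozone replicates 1, 2 or 5, vagotomised ozone replicates 2 or 3, sham air replicates 1 or 3 or vagotomised air replicates 1 or 5 (up to 0.079).

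The 13 Mt- rows had a median change of 0.18 in sham rats, where all 13 lay above 0, and 0.10 in vagotomised rats, where 9 did. With quantile normalisation the sham median was −0.01 and 6 of 13 lay above 0, and with equal column totals the median was 0.08 and 7 of 13 did. The sham median was 0.11 with 9 of 13 above 0 without sham ozone replicate 2, and 0.10 with 11 of 13 without sham air replicate 3. The vagotomised median was 0.03 without vagotomised ozone replicate 2, without vagotomised air replicate 1, without all 4 low-5.8S libraries or with equal upper quartiles, and 0.06 without vagotomised ozone replicate 3. Only Mt-nd6 and Mt-co2 rose in sham rats, 0 rose in vagotomised rats, and Mt-nd5 joined them in the average over surgery. Mt-nd6, a complex I subunit and the only protein gene on the light strand of mitochondrial DNA, had normalised counts of 6403, 7397 and 9625 (lowest, median, highest) in ozone-exposed sham rats, against 6322, 5323, 4816, 5985 and 5158 in air-exposed sham rats. Every ozone value was above every air value. The rise was 0.43 ± 0.12 (adjusted p = 0.0102). After vagotomy the values were 6080.2, 6598, 5409, 5085 and 4788 in ozone-exposed vagotomised rats, against 4067, 5248 and 6311 (lowest, median, highest) in air-exposed vagotomised rats, and the change was 0.10 ± 0.12 (adjusted p = 0.636). Those groups overlapped, and the difference between both ozone changes was −0.34 ± 0.17 (adjusted p = 0.574).

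Mt-co2, the copper-carrying subunit of complex IV that receives electrons from cytochrome c, had 84450.5, 196087 and 261891 (lowest, median, highest) in ozone-exposed sham rats, against 115141, 105259.8, 108472, 121626 and 114591 in air-exposed sham rats. In vagotomised rats it had 105329.9, 213554, 220487, 165981 and 177580.0 in ozone-exposed vagotomised rats, against 71169, 129208 and 165598 (lowest, median, highest) in air-exposed vagotomised rats. The lowest ozone value of each surgery group came from its low-5.8S library, and the other ozone values were above every air value. It rose by 0.69 ± 0.25 in sham rats (adjusted p = 0.0435) and changed by 0.60 ± 0.25 in vagotomised rats (adjusted p = 0.0968). Without the low-5.8S libraries the rises were 0.92 ± 0.13 (adjusted p = 2.26e-05) and 0.48 ± 0.15 (adjusted p = 0.023). Mt-co1, the catalytic subunit transcribed from the same strand, changed by 0.03 ± 0.12 and 0.05 ± 0.12, not called. The ratio of Mt-co2 to Mt-co1 was therefore 0.93 to 1.20 in the 5 other ozone-exposed sham libraries, 1.06 to 1.19 in the 4 other ozone-exposed vagotomised libraries, 0.48 to 0.68 in air-exposed sham rats and 0.76 to 1.00 in the 4 other air-exposed vagotomised libraries. In the 4 low-5.8S libraries it was 0.39 to 0.53, whatever the exposure. The small nucleolar RNA sum given above for Ndufc1 was also lowest in the low-5.8S libraries and mostly higher in the other ozone libraries than in the other air libraries. Its part in the result was not tested.

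**Figure D4:**
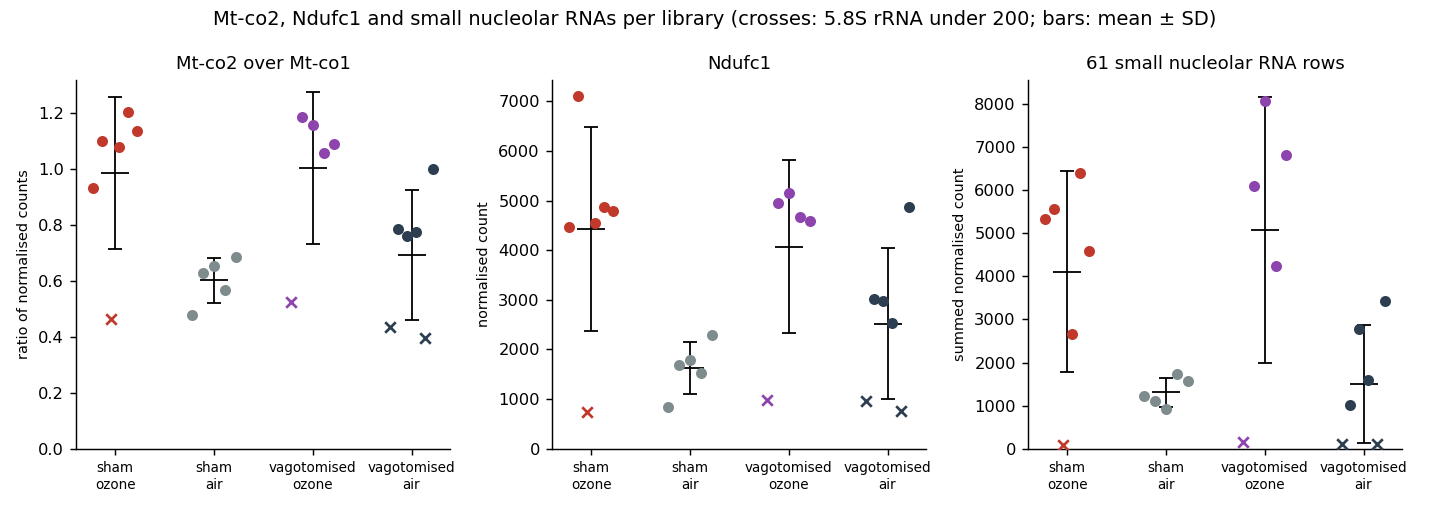
Ratio of Mt-co2 to Mt-co1 normalised counts (left), Ndufc1 normalised count (middle) and summed normalised count of 61 small nucleolar RNA rows (right) in every library, by group, with mean ± SD as bars. Crosses, the 4 libraries low in 5.8S ribosomal RNA, lie at the bottom of their groups in all panels, and the other ozone libraries lie above all sham air libraries.

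Mt-nd5, a proton-pumping subunit of complex I, had 31676, 59271 and 77182 (lowest, median, highest) in ozone-exposed sham rats, against 35689, 39339, 33085, 45588 and 38809 in air-exposed sham rats. In vagotomised rats it had 32650.3, 64537, 53452, 37914 and 44389 in ozone-exposed vagotomised rats, against 21654, 42731 and 47196 (lowest, median, highest) in air-exposed vagotomised rats. Its change averaged over surgery was 0.43 ± 0.16 (adjusted p = 0.0362), with 0.54 ± 0.22 in sham rats (adjusted p = 0.0744), and the lowest ozone values again came from low-5.8S libraries. Without those libraries Mt-nd5 rose in sham rats by 0.70 ± 0.14 (adjusted p = 0.000643), and its change in vagotomised rats was 0.14 ± 0.16 (adjusted p = 0.579), against 0.31 ± 0.22 over all libraries (adjusted p = 0.367). Apart from Mt-nd5 and Mt-nd6, the Mt- rows of complex I were not called, and each encodes a membrane subunit. Mt-nd1 had 25252, 28926 and 37234 (lowest, median, highest) in ozone-exposed sham rats, against 33696, 22195, 25194, 30788 and 26393 in air-exposed sham rats, a change of 0.10, and 24379.7, 29391, 28481, 23369 and 23634 in ozone-exposed vagotomised rats, against 20681, 25462 and 27864 (lowest, median, highest) in air-exposed vagotomised rats, a change of 0.05. Mt-nd2 had 33397, 40644 and 53234 (lowest, median, highest) in ozone-exposed sham rats, against 44222, 31540.5, 34455, 43597 and 38428 in air-exposed sham rats, a change of 0.08, and 27031, 34740.1, 31439, 32627 and 29738 in ozone-exposed vagotomised rats, against 25001, 32156 and 42574 (lowest, median, highest) in air-exposed vagotomised rats, a change of −0.07. The groups of both genes overlapped in each surgery group. Mt-nd3 had 5447, 6936 and 8652 (lowest, median, highest) in ozone-exposed sham rats, against 10254, 5564, 5871, 7608 and 5256 in air-exposed sham rats, a change of 0.03, and 5763, 6257, 6608, 5750.4 and 5179.8 in ozone-exposed vagotomised rats, against 4657, 5182 and 5458 (lowest, median, highest) in air-exposed vagotomised rats, a change of 0.21. Sham air replicate 1, at 10254, was the highest library for Mt-nd3. Mt-nd4 had 27284, 34693 and 44449.5 (lowest, median, highest) in ozone-exposed sham rats, against 33688, 27391, 26065, 36418 and 30189 in air-exposed sham rats, a change of 0.19, and 25338, 36429, 33002, 26139 and 29122 in ozone-exposed vagotomised rats, against 20322, 29190.5 and 32183 (lowest, median, highest) in air-exposed vagotomised rats, a change of 0.10. Mt-nd4l, which overlaps Mt-nd4 in the genome so that reads may be shared, had 6297, 6904 and 8929 (lowest, median, highest) in ozone-exposed sham rats, against 5914, 5726, 5566, 7267 and 6268 in air-exposed sham rats, a change of 0.25, and 6094, 7626, 6569.9, 4768 and 5899 in ozone-exposed vagotomised rats, against 4774, 6622 and 6800.0 (lowest, median, highest) in air-exposed vagotomised rats, a change of −0.03.

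Mt-cyb, cytochrome b of complex III, had 34795, 49941 and 61412 (lowest, median, highest) in ozone-exposed sham rats, against 49618, 42397, 35604, 49642 and 39662 in air-exposed sham rats, a change of 0.18. After vagotomy it had 37579, 49625, 49367, 38419 and 39833 in ozone-exposed vagotomised rats, against 28496, 38961 and 43289.8 (lowest, median, highest) in air-exposed vagotomised rats, a change of 0.20. The complex IV row Mt-co1 had 158742, 193558 and 238345 (lowest, median, highest) in ozone-exposed sham rats, against 241751, 167756, 166386, 214463 and 167444 in air-exposed sham rats, and sham air replicate 1 held the highest value of these. After vagotomy Mt-co1 had 200476, 179914, 190495, 157065 and 163183 in ozone-exposed vagotomised rats, against 161522, 169204 and 195278 (lowest, median, highest) in air-exposed vagotomised rats. Mt-cox3, the remaining mitochondrial subunit of complex IV, had 40361, 48391 and 62247 (lowest, median, highest) in ozone-exposed sham rats, against 59018, 39496, 33994, 49163 and 37133 in air-exposed sham rats, a change of 0.18, and 36597, 43814, 45362, 39910.5 and 36964 in ozone-exposed vagotomised rats, against 31083, 37681 and 40356 (lowest, median, highest) in air-exposed vagotomised rats, a change of 0.13. Of the complex V rows, whose genes overlap each other, Mt-atp6 had 49740.4, 85570.0 and 118346 (lowest, median, highest) in ozone-exposed sham rats, against 77441, 75924, 72449.7, 83432 and 84123 in air-exposed sham rats, a change of 0.07, and 46789, 75877, 74070.2, 66956 and 61215 in ozone-exposed vagotomised rats, against 38849.7, 76049 and 84832 (lowest, median, highest) in air-exposed vagotomised rats, a change of −0.03. Mt-atp8 had 7373, 8709 and 10537 (lowest, median, highest) in ozone-exposed sham rats, against 9756, 7949.8, 7146, 8802 and 8131 in air-exposed sham rats, a change of 0.07, and 9364, 7565, 7244, 6278 and 6191 in ozone-exposed vagotomised rats, against 7414, 7744 and 9142 (lowest, median, highest) in air-exposed vagotomised rats, a change of −0.13. All of these groups overlapped and none of these rows was called.

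Vagotomy against sham surgery gave no call among the members. In air, the median change of the members was −0.04 with 30 of 88 above 0, against 49.3% of all genes. There 0 of the 12424 genes were called (0% of all genes, with 387 genes and 1 member at unadjusted p under 0.05, limma), with 0 members called in every alternative fit, edgeR and DESeq2 included. Under ozone, the members lay mostly below 0 in vagotomised relative to sham rats, with a median of −0.19 and 14 of 88 above 0, against 48.3% of all genes. All 13 Mt- rows were below 0 there, with a median of −0.25, and 0 or 1 lay above 0 under the alternative settings. Of all genes 1.34% were called in that comparison, and of the members 0. At unadjusted p under 0.05 (limma) there were 11 of the 88 members and 1862 of the 12424 genes. Mt-nd6 averaged 5592 ± 739.6 in ozone-exposed vagotomised rats and 7481 ± 1172 in ozone-exposed sham rats (SD, n = 5 and 6), a change of −0.42 ± 0.12 (limma adjusted p = 0.0919). Ndufs6 averaged 115 ± 15.6 in ozone-exposed vagotomised rats and 163 ± 40.9 in ozone-exposed sham rats, a change of −0.48 ± 0.14 (adjusted p = 0.102). DESeq2 called both of these lower, and limma called Ndufs6 lower when sham ozone replicate 6 was left out.

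The difference between the ozone changes, vagotomised minus sham, had a median of −0.14 over the members, with 20 of 88 above 0, against 49.5% of all genes. For it 0% of all genes were called, with 1147 genes and 3 members at unadjusted p under 0.05 (limma) and 0 members called in edgeR or DESeq2. Without the 4 low-5.8S libraries the nuclear median of the difference was 0.01 and that of vagotomy in air −0.15, while under ozone it was −0.14 against −0.18 with all libraries. Without them 40 of the 88 members lay above 0 for the difference and 14 of 88 for vagotomy in air. With log2 5.8S as a covariate and all libraries kept, the nuclear median of the ozone change was 0.12 in vagotomised rats and 0.22 in sham rats, and that of the difference was −0.10. The nuclear median of the difference, −0.14 as reported, was −0.09 without sham ozone replicate 2 or 3 and −0.10 without vagotomised air replicate 5. Under ozone the nuclear median was −0.11 without sham ozone replicate 2 and −0.10 without sham ozone replicate 3. For vagotomy in air it ran from −0.08 to 0.06 with each library left out in turn. The comparisons under ozone and of the difference share their ozone-exposed sham rats with the first ozone comparison. Ndufa1 had the lowest difference, −0.55 ± 0.33, and was not called. Without the low-5.8S libraries its difference was −0.20 ± 0.23. Ndufc1 then had the lowest, −1.14 ± 0.31, not called (limma adjusted p = 0.181).

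**Figure D5:**
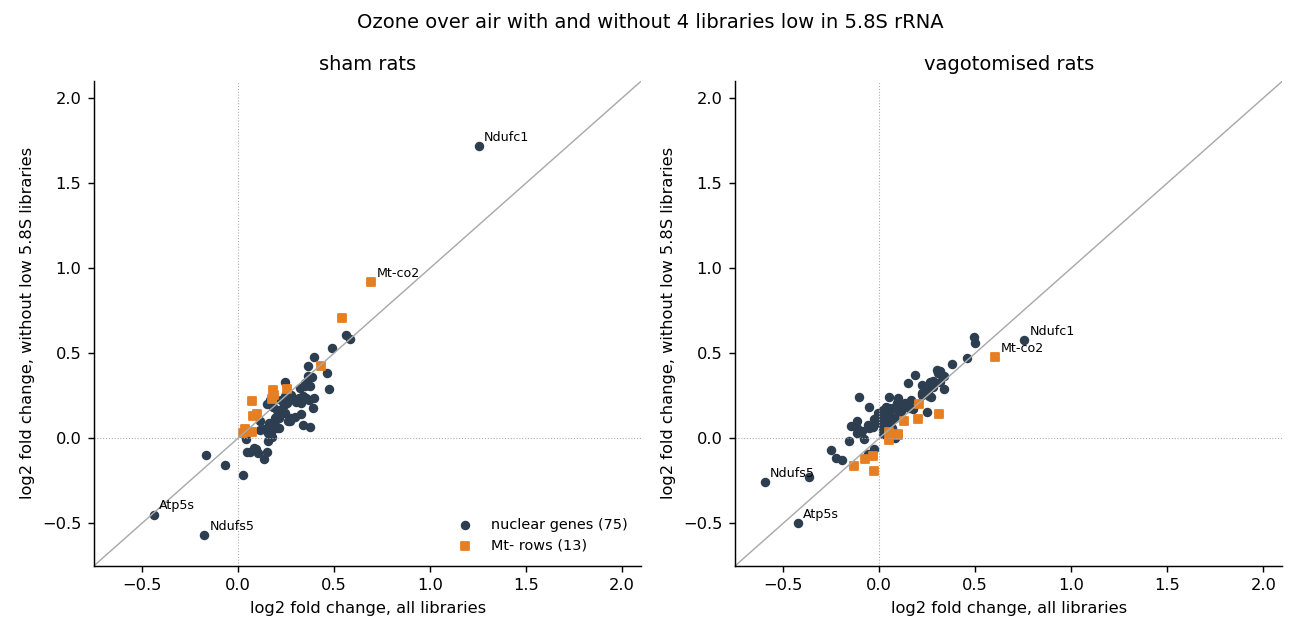
Log2 fold change of ozone over air for each member with all libraries (horizontal) and without the 4 libraries low in 5.8S ribosomal RNA (vertical), in sham rats (left) and vagotomised rats (right), with equality as the grey line. Nuclear genes shift down in sham rats and up in vagotomised rats, and Ndufc1 and Mt-co2 shift up in sham rats.

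Other genes that build, feed or regulate the chain, in lists chosen with earlier results of these data known, included larger single changes. Shares of a list that rose or fell stand beside those of all genes tested, 14.6% and 13.8% in sham rats and 11.4% and 9.63% in vagotomised rats. Of 14 complex I assembly factors tested, 2 rose in sham rats (14.3%) and 3 in vagotomised rats (21.4%), and none fell. Ndufaf4 rose by 1.42 ± 0.16 and 1.55 ± 0.16, and Foxred1 by 0.57 and 0.65. Ndufaf3 rose by 0.42 ± 0.14 in vagotomised rats (adjusted p = 0.0375) and changed by −0.11 ± 0.14 in sham rats (adjusted p = 0.622), and the difference of 0.53 ± 0.20 was not called (adjusted p = 0.437). The median of that list was −0.08 in sham and 0.15 in vagotomised rats. Of 30 assembly factors of complexes II to V, 7 rose (23.3%) and 1 fell (3.33%) in each surgery group, with medians of 0.12 and 0.23. Coa7 rose by 1.22 and 0.89, Cox10, which makes heme a, by 0.45 and 0.92, and Atpaf1, a chaperone of the ATP synthase head, by 0.34 and 0.77. Taco1, a translational activator of Mt-co1, was the one that fell (−0.999 in sham and −0.55 in vagotomised rats).

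Of 24 genes of mitochondrial DNA transcription, replication and RNA handling, 7 rose (29.2%) and 4 fell (16.7%) in sham rats, and 8 rose (33.3%) and 2 fell (8.33%) in vagotomised rats, with medians of 0.21 and 0.19. Mterf1 and Mterf2, of the mitochondrial termination factor family, fell in both, with changes of −1.04 and −1.31 in sham rats and −0.74 and −0.71 in vagotomised rats. Mtpap, the mitochondrial poly(A) polymerase, rose by 0.58 and 0.70, and Trmt10c, a subunit of mitochondrial RNase P, by 0.69 and 0.59. Of 14 regulators, 5 rose (35.7%) and 2 fell (14.3%) in sham rats and 4 rose (28.6%) and 2 fell (14.3%) in vagotomised rats, with medians of 0.26 and 0.13. Ppargc1a, the coactivator PGC-1 alpha, rose by 2.71 ± 0.32 in sham rats and 1.48 ± 0.32 in vagotomised rats, with a difference of −1.23 ± 0.45 that was not called (adjusted p = 0.421). Nfe2l2, a factor of the antioxidant response, had changes of −1.22 and −0.72 and fell in both. Of the thyroid hormone receptors, Thra rose (0.36 and 0.49) and Thrb fell (−0.58 and −0.78).

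Of 20 genes of mobile carriers and other routes of electron entry, 4 rose (20%) and 2 fell (10%) in sham rats, and 3 rose (15%) and 1 fell (5%) in vagotomised rats, with medians of 0.02 and 0.07. Coq10b, a ubiquinone-binding protein, rose by 2.38 ± 0.25 and 1.82 ± 0.25, while its relative Coq10a fell in sham rats (−0.46). Cycs, cytochrome c, rose by 0.51 and 0.84, and Pdss1, of ubiquinone synthesis, by 0.93 and 1.09. Of 16 citric acid cycle genes, 8 rose in sham rats (50%) and 7 in vagotomised rats (43.8%), none fell, and the medians were 0.32 and 0.36. Idh3a, of the NAD-linked isocitrate dehydrogenase, rose by 0.85 ± 0.15 and 1.00 ± 0.15, Dlat by 0.48 and 0.96, and Dlst by 0.28 and 0.50. Under ozone Dlat was also higher in vagotomised than in sham rats (0.46 ± 0.11, adjusted p = 0.0382). Of 9 carriers of ADP, phosphate and protons, 2 rose in sham rats (22.2%) and 3 in vagotomised rats (33.3%), with medians of 0.22 and 0.30, among them Vdac3 by 0.41 and 0.43 and the ADP/ATP carrier Slc25a5 by 0.29 and 0.49. Of 74 mitochondrial ribosomal protein genes, 10 rose in sham rats (13.5%) and 0 fell, and 7 rose (9.46%) and 1 fell (1.35%) in vagotomised rats, with medians of 0.10 and 0.05. Mrps31 rose by 1.62 ± 0.16 and 1.68 ± 0.16 and Mrpl47 by 1.30 and 1.32. The largest change of that list was in Mrpl53, at a mean normalised count of 13.3 over all libraries, which fell by 2.80 ± 0.94 in vagotomised rats (adjusted p = 0.0369) and changed by −1.84 ± 0.94 in sham rats (adjusted p = 0.154).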

How the data were processed

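Liver RNA of 22 rats was sequenced. The deposited table gives a signal for each gene and library, namely read counts that the authors scaled by a library size factor. STAR, Partek, DESeq, DESeq2 and the rn6 build were used, per the submitters' processing notes, with no versions given in the sources used here, and strand handling is not given, so overlapping or antisense genes, near-identical nuclear copies of mitochondrial genes and pseudogenes could share reads (28 of 75 nuclear members overlap another RefSeq gene span). All values were whole multiples of 1 step per library within 0.001, which gave back the reads.

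Genes with a mean of at least 10 (12424 of 14971) were tested as log2(value + 1) with limma 3.58.1 in R 4.3.3, as 4 group means over 22 libraries with an intensity trend, two-sided. There were 6 comparisons, including the ozone change averaged over surgery and the difference of the ozone changes. Recovered counts were also tested with edgeR 4.0.16 and DESeq2 1.42.0. The procedure was tested on simulated data. P-values reflect the spread between rats, and no pair of libraries of a group was a copy (lowest chi-square per degree of freedom 9.30 over 50 pairs).

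Replicate numbers count rats and pair none. Members, lists and naming rule were chosen with earlier results of these data known. The rule names all Mt- rows, called nuclear members, and the extreme, most abundant and isoform members of each complex, and up to 4 called members per other list, of which a few are not reported here. Counts are not per length, so levels are not compared between genes beyond the choice of the most abundant members by count. Promoters were searched with Python 3.11.15, and figures drawn with matplotlib 3.10.9.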

Additional observations from a re-analysis of the deposited data

Results flagged for a closer look

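In 120 groups of 4 to 10 libraries examined for a single far value, 7 had one, where chance gives about 5% or 1 in 20. Among the Mt- rows, Mt-co1 was high in vagotomised air replicate 5 (195278 normalised counts, with the next library at 172852), Mt-nd4l was low in vagotomised air replicate 1 (4774, next 6314), and Mt-nd6 was high in sham ozone replicate 2 (9625, next 7599). Ndufb11 was high in sham ozone replicate 2 (3471, next 2357) and low in sham air replicate 2 (1341, next 1645), and both push its sham ozone change the same way. Atp5s was low in sham air replicate 5 (87.2, next 107.8). Ndufc1 was low in vagotomised ozone replicate 1 (987, next 4595). Vagotomised air replicates 1 and 5 and vagotomised ozone replicate 1 are libraries low in 5.8S ribosomal RNA.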

How the results depend on the processing

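Counts of called members in sham rats, 19 as reported, were 9 with equal column totals, 10 with equal totals computed without Mt- rows, 11 with equal upper quartiles, 8 with quantile normalisation and 12 with only the groups compared in the fit. In vagotomised rats, 11 as reported, they were 6 with equal upper quartiles, 7 with quantile normalisation and 24 with array weights. Averaged over surgery, 28 as reported, the count was 17 with equal upper quartiles, and for vagotomy under ozone, 0 as reported, DESeq2 called 2. The cause was not tested. With each library left out in turn the counts ran from 10 to 22 in sham rats, 4 to 13 in vagotomised rats, 24 to 32 averaged over surgery, 0 to 1 for vagotomy under ozone, and were 0 for vagotomy in air and for the difference. The remaining alternatives (pseudocount, minimum count, robust variance, edgeR, a 5.8S covariate) left each count within 1.5 times, and no named change reversed while called.

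With the replicate number as a block, 17 members were called in sham rats, 8 in vagotomised rats and 28 averaged over surgery, and 0 in the other comparisons. On average same-numbered libraries did not deviate together more than others. The 31 same-numbered pairs correlated at −0.49 to 0.61 with a mean of 0.006, and pairs of different numbers also had a mean of 0.006. Whether single pairs shared a block was not tested. Depth was similar between groups, and only members of low count, such as Ndufs5, are limited by it.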
